A study of Mus musculus with 8 samples.

Results

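The core genes of the mitochondrial apoptosis pathway were described by annotated cell type in 2 mouse tissues, the petrous temporal bone (PTB) and the paraflocculus and flocculus (PF/F), neighbouring lobules of the cerebellum, of which the paraflocculus sits in a hollow of that bone. The set held 9 genes of the 32285 features in the count tables, and each of the 9 symbols matched 1 feature. Single-nucleus RNA sequencing (snRNA-seq) was performed on tissue of mice at postnatal day 5.5 that were wild type (WT) or heterozygous for Tbx1 (Tbx1+/-), a transcription factor gene of the 22q11.2 deletion syndrome region. The controls were littermates. There were 8 libraries, 2 per tissue and genotype, and each pooled nuclei from 5 mice. Libraries with the same replicate number came from the same batch of animals, and the library, not the nucleus, was the replicate. The paper describes both tissues being dissected from its mice, so PTB and PF/F libraries of a genotype and batch may share animals. The level of a gene is its count of unique molecular identifiers (UMIs), summed over the nuclei of a type in a library and given per 1000000 UMIs of those nuclei (CPM).

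Cells commit to apoptosis through the mitochondria when the outer mitochondrial membrane is made permeable. The effectors Bax and Bak1 form the pores. The anti-apoptotic proteins Bcl2, Bcl2l1 (BCL-XL) and Mcl1 hold the effectors in check, and the BH3-only proteins Bcl2l11 (BIM) and Bbc3 (PUMA) bind the anti-apoptotic proteins and release the effectors. Cytochrome c that leaves the mitochondria then assembles with Apaf1 into the apoptosome, which activates the initiator caspase Casp9. In the developing cerebellum and in growing bone, where large numbers of cells are made and removed, the balance among these proteins is a known determinant of survival. Transcript levels do not report on protein, on its modification or on the activity of the pathway.

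The 7 BCL2 family members share the BH3 motif, which forms a helix. It is the feature that places such different proteins in 1 family, so the 45 bases of coding sequence around it are shown for each, 5′ to 3′ on the coding strand, from GENCODE vM21 transcripts on GRCm38 (mm10). The capitals mark the codons of the leucine and of the small residue and aspartate that define the motif.
Bcl2: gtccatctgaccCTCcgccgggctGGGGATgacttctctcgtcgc
Bcl2l1: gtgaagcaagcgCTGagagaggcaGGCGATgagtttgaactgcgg
Mcl1: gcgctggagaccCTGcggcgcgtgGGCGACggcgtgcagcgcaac
Bax: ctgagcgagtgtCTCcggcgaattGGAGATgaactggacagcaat
Bak1: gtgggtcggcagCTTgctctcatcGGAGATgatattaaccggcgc
Bcl2l11: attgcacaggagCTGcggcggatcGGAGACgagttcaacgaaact
Bbc3: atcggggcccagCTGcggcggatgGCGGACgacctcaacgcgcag

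Each stretch lay within an exon, at chr1:106712569-106712613 (minus strand) for Bcl2, chr2:152829691-152829735 (minus) for Bcl2l1, chr3:95659424-95659468 (plus) for Mcl1, chr7:45465991-45466035 (minus) for Bax, chr17:27022525-27022569 (minus) for Bak1, chr2:128147138-128147182 (plus) for Bcl2l11 and chr7:16313761-16313805 (plus) for Bbc3. The BH3-only genes Bcl2l11 and Bbc3 were the closest pair, with 28 of 45 bases identical. Bcl2l1 and Bax were the most distant, with 17 of 45.

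The genes themselves differed greatly in size, which matters because reads in introns were counted. Bcl2 spanned 176 kb of chromosome 1 (106538178 to 106714274), Apaf1 93.5 kb of chromosome 10 (90989311 to 91082770), Bcl2l1 51.1 kb of chromosome 2 (152780668 to 152831728) and Bcl2l11 36.5 kb of chromosome 2 (128126038 to 128162547). Casp9 spanned 22.4 kb of chromosome 4 (141793612 to 141815976), Bbc3 9.81 kb of chromosome 7 (16308393 to 16318205), Bak1 9.2 kb of chromosome 17 (27019810 to 27029009), Bax 5.2 kb of chromosome 7 (45461697 to 45466898) and Mcl1 4.39 kb of chromosome 3 (95658788 to 95663176). Bak1 lies wholly within Ggnbp1 on the opposite strand, Bcl2 shares 33103 bases with the antisense gene D630008O14Rik, Casp9 shares 1015 bases with genes on the opposite strand, and Bax shares 915 bases with the gene model Gm45808 on its own strand. Also on its own strand, Bcl2 shares 2087 bases with the gene model Gm37053 and 136 bases with Mir3473f. Reads of Bax and Bcl2 in those stretches could have been split or discarded, so their levels are uncertain to that extent.

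The libraries held 10583 to 21868 barcodes and 44713226 to 88677309 UMIs. The deposited annotation covered 31076 PTB nuclei in 15 types, of connective tissue, cartilage and bone, and 48237 PF/F nuclei in 16 types. Apart from Osteoclasts, no immune cells and no neurons are among the PTB types, and the other PTB barcodes entered only the alternative with all barcodes. The median annotated nucleus held 2610 to 4758 UMIs depending on the library. Library pairs shared 11 to 60 barcodes, at most 0.503% of the smaller library. Tbx1 was at 38.9 and 39.4 CPM in the 2 WT and 26.3 and 35.7 CPM in the 2 Tbx1+/- PTB libraries, and at 0.0949 to 0.265 CPM in the PF/F libraries. The summed markers of granule cells, GABAergic interneurons, Purkinje cells, astroglia, oligodendrocytes, immune cells, endothelial cells and pericytes in PF/F, and of chondrocytes, osteoblasts, osteocytes and osteoclasts in PTB, were each highest in a type of that name. Osteoblast markers were next highest in the chondrocyte progenitor type CP1, at a mean of 11246 CPM against 12966 CPM in Osteoblasts. Meningeal or connective tissue markers were highest in Meningeal nuclei in PF/F. In PTB they did not peak in the connective tissue types CT1 to CT4, with means of 3280 to 8004 CPM, but in Osteoblasts (mean 10116 CPM). Erythroid markers were highest on average in PTB Matured chondrocytes, where they summed to 929 to 13308 CPM and overlapped CT3, and in PF/F Endothelial nuclei. Skeletal muscle markers summed to 659 to 954 CPM in Osteoclasts, above every other PTB type. Their part in the levels of those types was not tested. Counts were not corrected for free RNA, which can add a like background to every type of a library.

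Over all annotated nuclei the 9 genes gave 1633 (Bbc3) to 40706 (Bcl2) UMIs. Compared between genes per kilobase of gene span, Mcl1 was highest, at 15.8 ± 0.607 CPM per kb in PTB and 12.0 ± 0.634 CPM per kb in PF/F (SD, n = 4 libraries). Bax followed at 5.30 ± 0.764 and 9.12 ± 1.96 CPM per kb. The remaining 7 lay between 0.421 (Apaf1 in PF/F) and 1.72 (Bcl2l11 in PTB) CPM per kb. Per kilobase of exons the order was different: in PTB Mcl1 was at 20.3, Bax at 17.5 and Bcl2 at 16.2 CPM per kb, and in PF/F Bax was highest at 30.1, above Bcl2l1 at 17.8, Mcl1 at 15.5 and Bcl2 at 11.3 CPM per kb. Bak1, Casp9 and Bbc3 were at 2.27 to 3.88 CPM per kb in both tissues. Since nuclear UMIs came from introns as well as exons, neither length gives a transcript number.

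**Figure D1:**
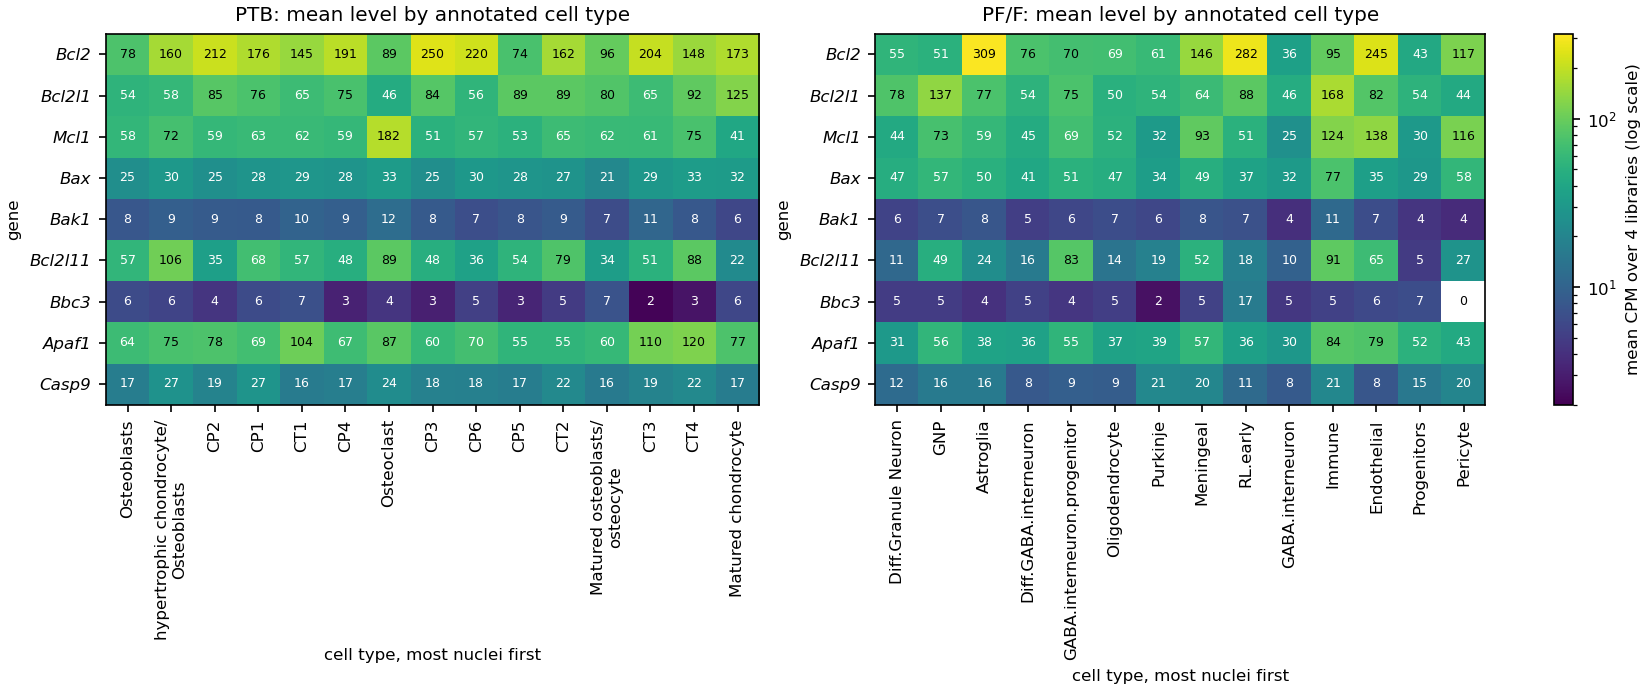
Mean level of the 9 genes (rows) in 15 PTB and 14 of the 16 PF/F cell types (columns, most nuclei first), in CPM over 4 libraries, with colour on a log scale and the value in each cell. Bcl2 was brightest in Astroglia (309 CPM), Mcl1 in Osteoclasts (182 CPM), and Bbc3 and Bak1 were low throughout; white marks Bbc3 in Pericytes, with 0 UMIs.

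Among the anti-apoptotic genes, Bcl2 had the widest range over PF/F types. It was highest in Astroglia, at 277 and 357 CPM in the WT and 276 and 329 CPM in the Tbx1+/- libraries of replicates 1 and 2, followed by early rhombic lip nuclei (RL.early) at 282 ± 21.5 CPM and Endothelial nuclei at 245 ± 58.1 CPM (SD, n = 4). These 3 types overlapped each other, and the lowest of their libraries lay above the 117 to 161 CPM of Meningeal nuclei, the next in order. Neurons were lower. Granule neuron progenitors (GNP) had 47.4 to 53.1 CPM, differentiated granule neurons 46.4 to 61.2 CPM, Purkinje cells a mean of 60.8 CPM, and GABA.interneuron nuclei the lowest mean at 35.9 ± 8.82 CPM, 8.61-fold below Astroglia.

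In PTB, the chondrocyte progenitors (CP) CP3, CP6 and CP2 led for Bcl2, with means of 250 ± 17.0, 220 ± 12.8 and 212 ± 17.0 CPM (SD, n = 4). The progenitors did not form a block, because CP5 had the lowest Bcl2 of all PTB types at 74.3 ± 7.63 CPM. The only gap between neighbours in this order fell between the connective tissue type CT1, at 137 to 152 CPM, and Matured osteoblasts/osteocytes, at 78.0 to 121 CPM. Below that gap lay Matured osteoblasts/osteocytes, Osteoclasts (89.3 ± 8.42 CPM), Osteoblasts (78.3 ± 5.34 CPM) and CP5.

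Mcl1, a short-lived protein on which myeloid cells depend, separated Osteoclasts from the other annotated PTB types. Its level there was 183 and 185 CPM in the WT and 160 and 198 CPM in the Tbx1+/- libraries, and no library of any other PTB type exceeded 84.4 CPM, reached in CT4. The other 14 PTB types had means of 41.0 to 74.9 CPM. Osteoclasts were also the deepest PTB type in every library, with medians of 4963 to 7105 UMIs per nucleus. The part of this depth in their Mcl1 level was not tested. In PF/F, Endothelial (138 ± 33.0 CPM), Immune (124 ± 17.2 CPM) and Pericyte (116 ± 34.0 CPM) nuclei had the highest Mcl1 and overlapped, though the Pericyte value rests on 25 UMIs. Purkinje cells, at 31.9 ± 5.39 CPM, Progenitors and GABA.interneuron nuclei were lowest. These were also the deepest PF/F types, with library medians of 5653 to 8533, 6704 to 10267 and 5259 to 8069 UMIs per nucleus. No other PF/F type had a library median above 4302 UMIs. Whether depth had a part in their levels of this or the other genes was not tested.

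Bcl2l1 was highest in PF/F Immune nuclei, at 168 ± 34.9 CPM, and in GNP, at 137 ± 9.0 CPM (SD, n = 4). The 4 GNP libraries, at 126 to 148 CPM, lay above all libraries of the next type, RL.early, at 70.8 to 102 CPM. In PTB the highest mean was that of Matured chondrocytes, at 125 ± 40.6 CPM, but its libraries ran from 89.8 to 180 CPM and overlapped the next type. Osteoclasts, highest for Mcl1, were lowest for Bcl2l1 at 45.6 ± 6.46 CPM. Of all UMIs from Bcl2, Bcl2l1 and Mcl1 together, Mcl1 gave 57.4% ± 2.94 in Osteoclasts and 30.5% ± 1.39 in Osteoblasts, Bcl2 gave 69.4% ± 3.23 in Astroglia and 19.7% ± 0.836 in GNP, and Bcl2l1 gave 17.3% ± 2.22 in Astroglia and 52.4% ± 2.44 in GNP. These shares compare types for the same genes and were not scaled for gene length.

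**Figure D2:**
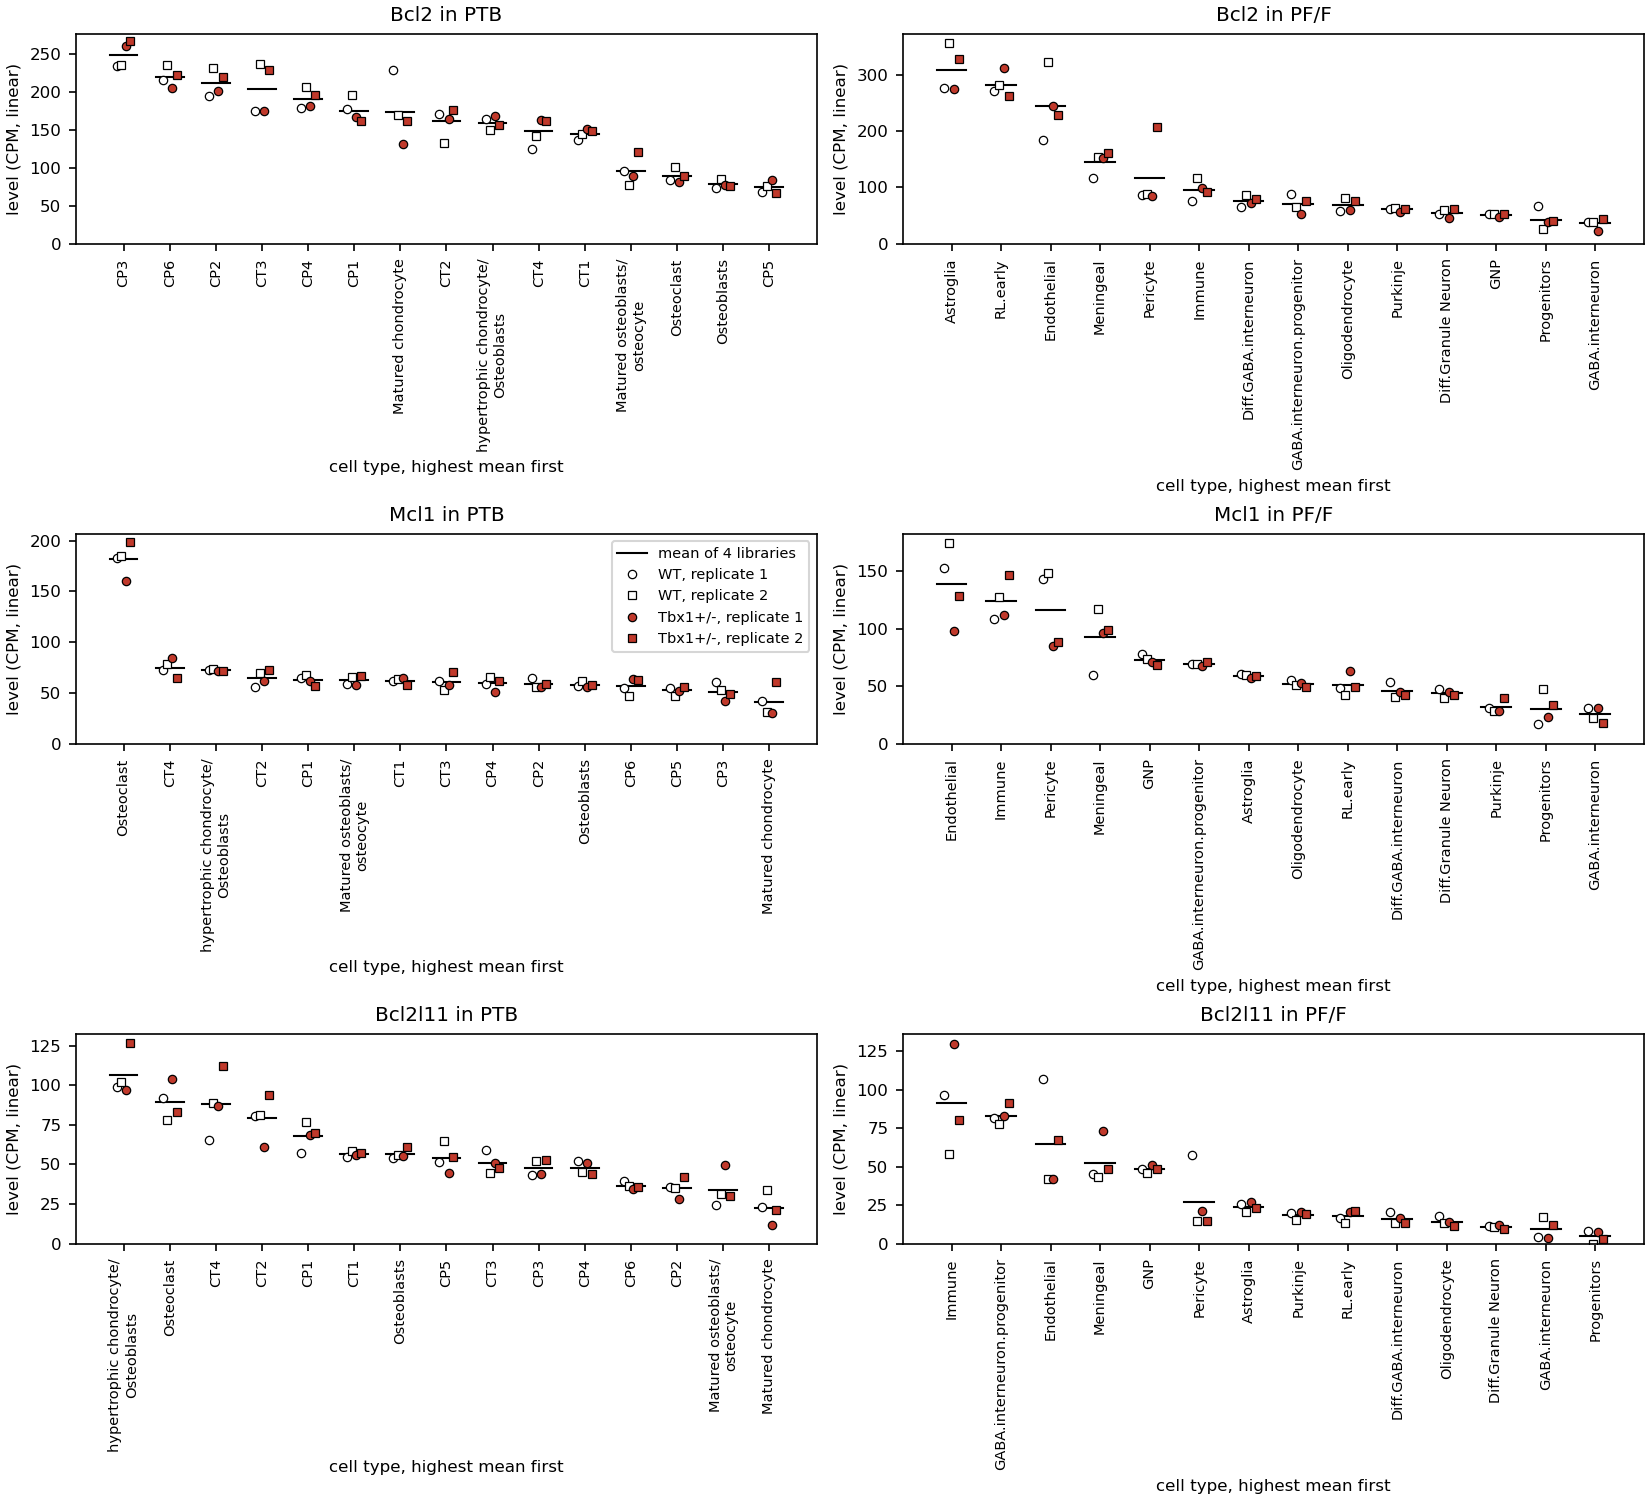
Levels of Bcl2, Mcl1 and Bcl2l11 in CPM on linear axes, by cell type with the highest mean first, in PTB (left) and 14 PF/F types (right); points are the 4 libraries of a tissue (open, WT; red, Tbx1+/-; circles and squares, replicates 1 and 2) and bars their mean. Osteoclasts stood alone for Mcl1 among the annotated PTB types, at 160 to 198 CPM against at most 84.4 CPM in every other one.

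The effectors varied less among types. Bax ran from 21.4 ± 6.22 CPM in Matured osteoblasts/osteocytes to 33.3 ± 11.5 CPM in CT4, a ratio of 1.56, and no neighbours in the order of the PTB types were apart. In PF/F its means ran from 29.2 ± 16.5 CPM in Progenitors to 76.7 ± 16.2 CPM in Immune nuclei, again with no gap. Within PF/F types Bax followed the batch: in GNP it was at 70.7 and 61.8 CPM in the WT and Tbx1+/- libraries of replicate 1 and at 46.2 and 49.9 CPM in those of replicate 2, and in differentiated granule neurons at 60.4 and 50.6 against 40.0 and 37.9 CPM. Bak1 had means of 3.70 to 12.4 CPM over all 31 types, highest in Osteoclasts at 12.4 ± 2.13 CPM in PTB and in Immune nuclei at 11.3 ± 5.04 CPM in PF/F, the latter from 15 UMIs.

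For the BH3-only gene Bcl2l11 the highest type mean was 19.1 times the lowest in PF/F and 4.73 times in PTB, above the ratios of the other members that could be given one. In PF/F it was highest in Immune nuclei (58.1 to 130 CPM) and in GABA.interneuron.progenitor nuclei (77.5 to 91.2 CPM), and it was at 11.1 ± 1.08 CPM in differentiated granule neurons and lower on average in GABA.interneuron and Progenitors nuclei, among others. The value of Progenitors rests on 5 UMIs. In PTB, cells annotated as hypertrophic chondrocyte/Osteoblasts led, with 99.2 and 102 CPM in the WT and 96.8 and 127 CPM in the Tbx1+/- libraries. Osteoclasts (89.3 ± 11.4 CPM) and CT4 (88.3 ± 19.1 CPM) came next and overlapped them. Matured chondrocytes, at 22.5 ± 9.03 CPM, were lowest.

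Bbc3, a p53 target that is kept low in unstressed cells, was at 2.12 to 7.29 CPM on average over the PTB types. In PF/F only RL.early stood out by its mean, 16.7 ± 6.45 CPM from 43 UMIs, yet its libraries spread from 9.29 to 23.5 CPM and overlapped those of Progenitors, at 0 to 14.7 CPM. No UMI of Bbc3 was seen in the 74 Pericyte nuclei, where 3 UMIs would amount to 44.4 to 86.1 CPM per library, so Pericytes could not be compared with the other types.

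Of the apoptosome genes, Apaf1 was highest in 3 of the 4 connective tissue types, CT4 (120 ± 25.4 CPM), CT3 (110 ± 11.6 CPM) and CT1 (104 ± 17.4 CPM), while CT2 was lowest in PTB at 55.1 ± 4.96 CPM. In PF/F it was highest in Immune nuclei, at 66.4 to 103 CPM, and between 29.6 and 30.7 CPM on average in GABA.interneuron and differentiated granule neuron nuclei. Casp9 ran from 16.2 to 27.5 CPM over the PTB types, and its highest mean in PF/F was 21.2 ± 4.10 CPM in Purkinje nuclei. Immune (21.0 CPM), Meningeal (20.5 CPM) and Pericyte (20.1 CPM) nuclei had similar means, and the Purkinje libraries overlapped those of Immune nuclei. Casp9 followed the batch in PTB: in hypertrophic chondrocyte/Osteoblasts it was at 19.5 and 24.4 CPM in the WT and Tbx1+/- libraries of replicate 1 and at 29.3 and 32.9 CPM in those of replicate 2.

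Next, cell types were compared in 11 chosen pairs, some of related types and some of different lineages. A gene was counted as apart where the 4 libraries of a type all lay above the 4 of the other. The types were clustered from these same nuclei, so the counts are descriptions without a test, and each is read against the share of all genes with at least 50 UMIs in the pair that were apart. The first pair followed granule cell maturation in PF/F, from GNP, the proliferating precursors, to differentiated granule neurons. Of the 9 genes, 5 were apart, and each of those was higher in GNP, where 59.0% of 17557 genes were apart, 40.6% higher and 18.4% lower. Bcl2l11 differed most, at 48.6, 45.9, 51.5 and 48.4 CPM in the GNP and 11.4, 10.9, 12.3 and 9.69 CPM in the differentiated neurons (WT replicates 1 and 2, then Tbx1+/- replicates 1 and 2). The ratio of means was 4.40. Apaf1 (1.82-fold), Bcl2l1 (1.74-fold), Mcl1 (1.66-fold) and Casp9 (1.38-fold) were also higher in GNP. Bcl2, Bax, Bak1 and Bbc3 overlapped, with ratios of 0.934, 1.21, 1.23 and 0.987. GNP and differentiated granule neurons had similar depth, with library medians of 2294 to 2966 and 2572 to 3483 UMIs per nucleus.

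Bcl2l11 also differed most between GABAergic precursors and their differentiated counterparts. In GABA.interneuron.progenitor nuclei against Diff.GABA.interneuron nuclei, 4 of the 9 genes were apart and higher in the precursors, where 46.1% of 14589 genes were apart, 28.2% higher and 17.9% lower. Bcl2l11 was at 83.3 ± 5.75 against 16.1 ± 3.22 CPM, a ratio of 5.16, followed by Mcl1 (1.53-fold), Apaf1 (1.51-fold) and Bcl2l1 (1.41-fold). Bcl2, with 70.5 and 76.1 CPM, overlapped here as well. The types of this pair also differed in summed markers. The precursor nuclei had more astroglial (827 against 114 CPM), Purkinje (577 against 142 CPM) and granule markers (1156 against 705 CPM). GABAergic markers were fewer there (259 against 1623 CPM). The part of these differences in the member levels was not tested.

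**Figure D3:**
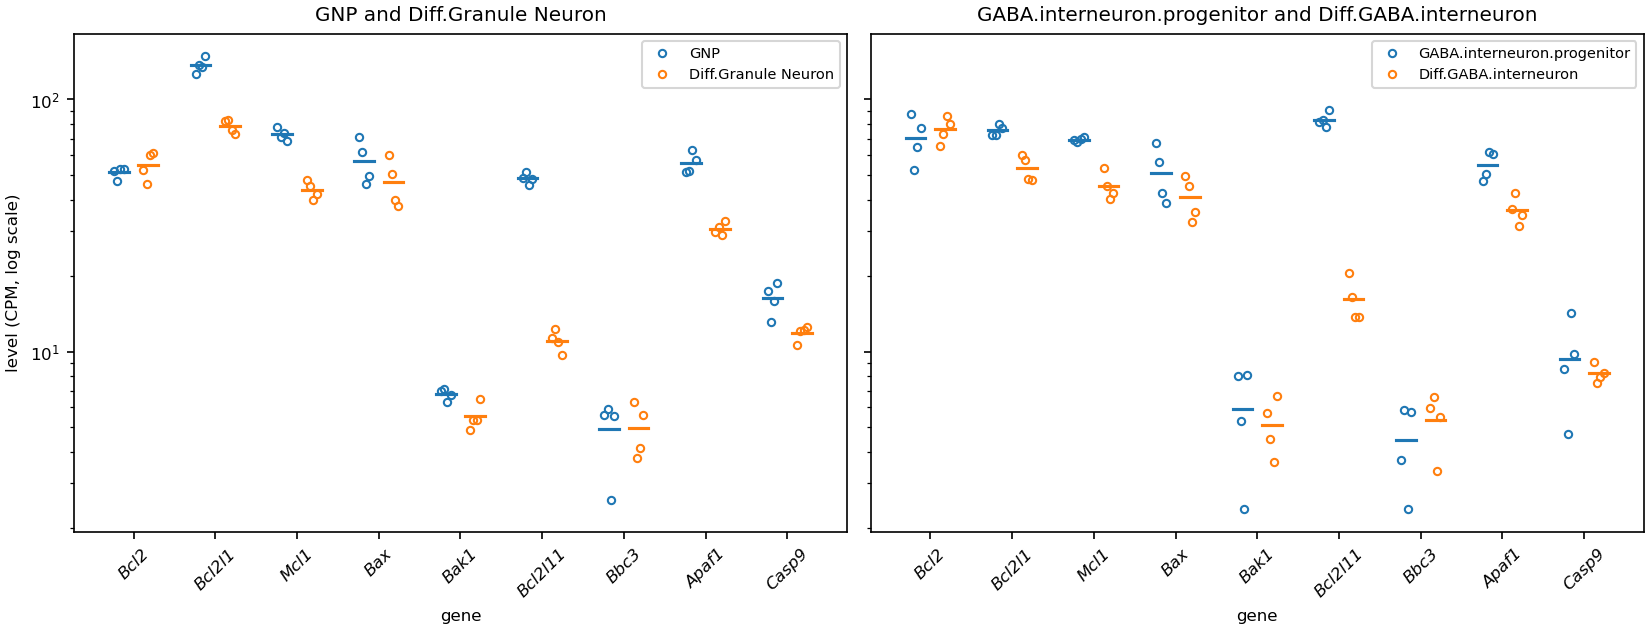
Levels of the 9 genes in CPM (log axis) in GNP and Diff.Granule Neuron nuclei (left) and in GABA.interneuron.progenitor and Diff.GABA.interneuron nuclei (right); circles are the 4 PF/F libraries and bars their mean. The distance was largest for Bcl2l11, 48.6 against 11.1 CPM on the left and 83.3 against 16.1 CPM on the right, while Bcl2 overlapped in both panels.

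The other pathway genes were counted in the same pairs. Of 49 further genes of the BCL2 family, the caspases, the release factors and inhibitors of apoptosis, the p53 axis and the death receptor pathway, 42 had enough UMIs in the granule pair, and 21 were apart and higher and 2 apart and lower in GNP. That was 54.8% apart, beside 59.0% of all genes, 40.6% higher and 18.4% lower. In the GABAergic pair the counts were 16 higher and 2 lower of 32, or 56.2%, beside 46.1% of all genes, 28.2% higher and 17.9% lower. Trp53, which encodes p53, was at 56.7 against 17.2 CPM in the granule pair and 44.1 against 20.3 CPM in the GABAergic pair. The initiator caspase Casp8 was at 9.72 against 1.77 CPM and 13.9 against 1.88 CPM. The p53-related receptor Eda2r was at 20.2 against 2.17 CPM and 20.9 against 2.78 CPM. The values of these 3 genes were seen before they were chosen for mention.

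In the other PF/F pairs, Astroglia exceeded Oligodendrocytes in 5 genes and fell below in none (35.2% of all genes were apart, 19.5% higher and 15.7% lower). Bcl2 separated them most, at 309 ± 39.9 against 68.6 ± 11.4 CPM, a ratio of 4.51. Purkinje cells were higher than differentiated granule neurons in Casp9 (1.79-fold), Bcl2l11 (1.70-fold) and Apaf1 (1.26-fold) and lower in Bcl2l1 (0.686-fold), Mcl1 (0.727-fold) and Bbc3 (0.500-fold), where 48.2% of all genes were apart, 22.2% higher and 26.0% lower. Purkinje nuclei were deeper, with medians of 5653 to 8533 UMIs. Immune nuclei exceeded differentiated granule neurons in 6 genes, where 41.8% of all genes were apart, 24.6% higher and 17.2% lower. Their ratios ran from 1.73 (Bcl2) to 8.26 (Bcl2l11).

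In PTB, Osteoblasts served as the reference in all 6 pairs. Cells annotated as hypertrophic chondrocyte/Osteoblasts exceeded them in Bcl2 (160 ± 8.16 against 78.3 ± 5.34 CPM, a ratio of 2.04), Bcl2l11 (1.88-fold) and Mcl1 (1.25-fold) and were apart and lower in none of the 9, while 33.4% of all genes were apart, 24.1% higher and 9.31% lower. Osteoclasts exceeded Osteoblasts in 5 genes, Mcl1 (3.14-fold), Bcl2l11 (1.58-fold), Bak1 (1.56-fold), Casp9 (1.36-fold) and Apaf1 (1.34-fold), where 48.1% of all genes were apart, 24.2% higher and 23.9% lower. CT1 exceeded Osteoblasts in Bcl2 (1.86-fold), Apaf1 (1.62-fold) and Bcl2l1 (1.21-fold), where 36.5% of all genes were apart, 23.4% higher and 13.1% lower.

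In the progenitors CP2 and in Matured chondrocytes, Bcl2 and Bcl2l1 were higher and Bcl2l11 lower than in Osteoblasts, while Mcl1 overlapped. CP2 was higher in Bcl2 (212 ± 17.0 against 78.3 ± 5.34 CPM) and Bcl2l1 (1.59-fold) and lower in Bcl2l11 (35.3 ± 5.81 against 56.6 ± 2.96 CPM) and Bbc3 (0.688-fold), where 42.0% of all genes were apart, 28.8% higher and 13.3% lower. Matured chondrocytes were higher in Bcl2 (2.22-fold) and Bcl2l1 (2.32-fold) and lower in Bcl2l11 (22.5 ± 9.03 CPM, a ratio of 0.397), where 28.2% of all genes were apart, 14.1% higher and 14.1% lower. A Matured chondrocyte library held as few as 48 nuclei. Matured osteoblasts/osteocytes were higher than Osteoblasts in Bcl2l1 (80.2 ± 8.13 against 53.9 ± 6.74 CPM) and lower in Bcl2l11 (33.8 ± 10.9 CPM), and the other 7 genes overlapped. In that pair 21.4% of all genes were apart, 7.82% higher and 13.5% lower in the matured cells.

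Genes with the most similar pattern over types were listed for Bcl2, Bax, Bcl2l11 and Apaf1, by Pearson's r of log2(mean CPM + 1) over the types of a tissue among genes with at least 10 CPM on average. In PF/F (16 types, 11566 genes), Bcl2l11 was most like Trp53 (r = 0.907), Fem1c (r = 0.905) and Ap3b1 (r = 0.904). Bcl2 was most like Pgm5 (r = 0.885), Hsdl2 (r = 0.878) and Gpam (r = 0.865). Bax was most like Zfp62 (r = 0.939), Limd2 (r = 0.931) and Kdm3b (r = 0.929), and Apaf1 most like Higd2a (r = 0.912), Sh3gl1 (r = 0.909) and Mtif3 (r = 0.903). In PTB (15 types, 10696 genes), the first in each list were Fzd1 for Bcl2 (r = 0.870), Fdx2 for Bax (r = 0.896), Paqr3 for Bcl2l11 (r = 0.856) and Rac1 for Apaf1 (r = 0.893). They were followed by Dennd5a and Rbbp7 for Bcl2, Timm17a and Afg3l2 for Bax, Trim26 and Dctn4 for Bcl2l11, and Npepl1 and Ammecr1l for Apaf1, with r of 0.814 to 0.879. The types share libraries and the genes were picked as the highest of all those compared, so these values describe likeness and carry no p. No gene was among the first 3 for the same member in both tissues.

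The tissues were then compared over all annotated nuclei, PTB against PF/F, with 4 libraries each, using edgeR's quasi-likelihood test and calling a gene at an adjusted p under 0.05 and more than 1.5-fold. Of the 9 genes, 3 were called higher in PTB and 1 lower, where 28.2% of the 21639 genes tested were called higher and 32.5% lower, 60.8% in all, so a call was common. Bcl2l11 was at 58.5, 61.8, 61.9 and 68.3 CPM in the PTB and 25.5, 21.2, 27.3 and 22.2 CPM in the PF/F libraries (WT replicates 1 and 2, then Tbx1+/- replicates 1 and 2). All PTB values lay above all PF/F values, with a log2 change of 1.37 ± 0.08 (SE, adjusted p = 3.74e-07).

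Apaf1 was likewise apart, at 66.5 to 78.4 against 37.6 to 40.3 CPM (log2 change 0.89 ± 0.07, adjusted p = 2.81e-06). Casp9 was at 15.8 to 24.1 against 12.2 to 13.7 CPM (0.61 ± 0.14, adjusted p = 0.00331), and its change was 0.43 between the libraries of replicate 1 and 0.79 between those of replicate 2. The call was lost without PF/F WT replicate 1 (0.57), PF/F Tbx1+/- replicate 1 (0.56), PTB WT replicate 2 (0.52) or PTB Tbx1+/- replicate 2 (0.52), and also with all barcodes (0.43). Its difference also lay under 1.5-fold with each type weighted equally (0.58), where no edgeR fit was run. Bax, the only member called lower in PTB, was at 21.7 to 30.5 against 38.3 to 59.5 CPM (log2 change -0.79 ± 0.16, adjusted p = 0.00136), with -0.90 and -0.63 within the batches.

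A further 4 genes passed the adjusted p but not the fold. Bcl2 (0.50 ± 0.08, adjusted p = 0.000491), Bak1 (0.50 ± 0.12, adjusted p = 0.00511) and Mcl1 (0.38 ± 0.06, adjusted p = 0.000411) had positive log2 changes and Bcl2l1 a negative one (-0.27 ± 0.06, adjusted p = 0.0038). Bbc3 was at 4.21 to 5.80 CPM in PTB and 3.90 to 5.5 CPM in PF/F and overlapped (0.06 ± 0.14, adjusted p = 0.688). The median change of all genes was -0.06. The PTB sums cover the annotated skeletal types alone, whereas the PF/F sums cover neurons, glia and other types, so they are not levels of 2 whole tissues. Such a sum mixes the makeup of the annotated nuclei with the level in each type, and in it fewer cells of a type and less RNA per cell cannot be told apart. With each type weighted equally, the log2 differences were 0.90 for Bcl2l11, 0.71 for Apaf1, 0.58 for Casp9 and -0.68 for Bax, each with an exact two-sided permutation p of 0.0286, the smallest that 4 libraries against 4 can give, and the value for Casp9 lay under 1.5-fold. Bcl2l1 then changed sign, at 0.02 (exact permutation p = 0.743), as did Bbc3, at -0.14 (exact permutation p = 0.371), and Mcl1 was at 0.07 (exact permutation p = 0.314). Bcl2 was at 0.47 (exact permutation p = 0.0286) and Bak1 at 0.47 (exact permutation p = 0.0571). The permutation took all libraries as exchangeable and ignored their batch and any animals shared between the tissues. An exact test within matched libraries could not give a p as small as 0.0286.

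**Figure D4:**
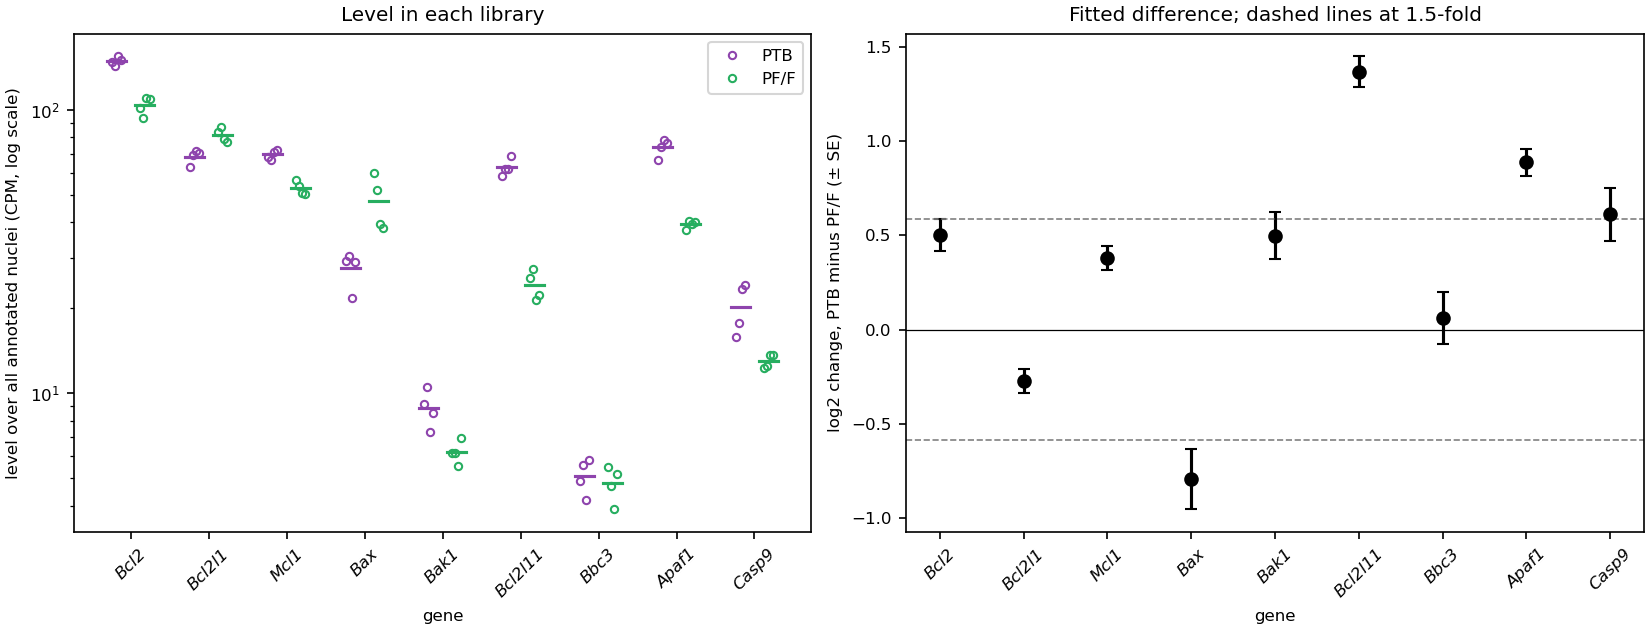
Left, level of each gene over all annotated nuclei in CPM (log axis), with 4 PTB and 4 PF/F libraries as circles and bars at their mean; right, fitted log2 change, PTB minus PF/F, with its standard error and dashed lines at 1.5-fold. Bcl2l11 (1.37), Apaf1 (0.89) and Casp9 (0.61) lay above the upper line and Bax (-0.79) below the lower one.

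Of the other pathway genes, 48 of 49 were tested between the tissues, and 23 were called higher and 5 lower in PTB, with a median log2 change of 0.57. Of all 21639 genes tested, 28.2% were called higher and 32.5% lower, 60.8% in all, so a call was common. The lists below are small, and their counts are descriptions without a test, to be read beside these shares. The death receptor genes were called higher in 6 of 7, beside 28.2% of all genes. They included Cflar, an inhibitor of Casp8, at 90.5 ± 2.27 against 23.4 ± 1.13 CPM (log2 change 1.93), and the receptor Fas at 6.49 ± 0.758 against 0.468 ± 0.175 CPM (3.75). Caspases were called higher in 4 of 6, beside the same 28.2%, led by Casp8 (37.6 ± 2.08 against 6.76 ± 0.474 CPM, 2.46) and Casp12 (3.28). In the p53 axis 6 of 12 were higher and 1 lower, with Cdkn1a, the p21 cell cycle inhibitor, at 35.4 ± 4.49 against 4.77 ± 0.850 CPM (2.87). Of the other anti-apoptotic BCL2 family 3 of 4 were higher, among them Bcl2l2 (1.07). Of the other pro-apoptotic BCL2 family 2 were higher, with Bmf at 2.59, and 2 lower, Hrk, a BH3-only gene of neurons, at 1.12 ± 0.236 against 9.54 ± 0.162 CPM (-3.12) and Bok (-2.32). Among release factors and inhibitors, Birc3 (4.29) and Xiap (0.65) were higher, and Birc5, a mitotic gene (17.6 ± 2.63 against 34.8 ± 6.96 CPM), and Cycs, which encodes cytochrome c (-0.79, named after its value was seen), were lower. None of the 3 execution targets was called.

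Finally, WT and Tbx1+/- were compared within each type with at least 50 nuclei in every library, which left 14 PTB and 12 PF/F types. The main fits held no batch term, so differences between batches counted as spread within a genotype. No member was called in any type, over 207 tests that passed the filter on low counts, and 2 had an unadjusted p under 0.05, or 0.966% of the tests beside 1.56% over all genes (1.78% in PTB and 1.3% in PF/F types). DESeq2 called none either, with 0 unadjusted p under 0.05, beside 0.203% over all genes. In all types together, 1 of 327081 tests over all genes was called (0.000306%, or 0.000677% of those in PF/F types), and this does not show that levels were the same. The count over all genes depended on the libraries. It was 16 to 586 in PTB types and 19 to 231 in PF/F types when each library was left out, highest without WT replicate 1 in either tissue (0.315% and 0.149% of the tests), and 53 and 54 with the replicate block (0.0295% and 0.0366%). With a library left out, the lone library of a group was assumed to vary like the other group. No member was called in any of these fits. Apaf1 in CP5 was among those 2, at 68.0 and 62.3 CPM in the WT and 46.3 and 44.7 CPM in the Tbx1+/- libraries (log2 change -0.54 ± 0.19, edgeR adjusted p = 1.00). Its WT values lay above its Tbx1+/- values, but it was picked as the lowest p of the 207 tests, so this adds no support. With the replicate block, 6 of the 207 tests had an unadjusted p under 0.05 (2.90%, beside 4.08% over all genes), and none was called.

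Over the types, the fitted changes lay between -0.33 and 0.30 for Bcl2, Bcl2l1 and Mcl1 in PTB, with standard errors of 0.11 to 0.25, and between -0.25 and 0.21 for Bcl2 in PF/F, with standard errors of 0.14 to 0.32. The sign was mixed for most genes. Bax had a positive change in 13 of 14 PTB types and a negative one in 11 of 12 PF/F types, and it had the same direction in both batches in 8 PTB and 7 PF/F types. Types of a tissue share their libraries, so these counts are not independent of each other. How often other genes were as one-sided was not counted. Over all annotated PTB nuclei the Bax change was 0.066 between the libraries of replicate 1 and 0.42 between those of replicate 2. In PF/F it was -0.19 and -0.048. Bbc3 was positive in all 6 PTB types in which it could be tested (0.15 to 0.77) and in 3 of 5 PF/F types, and Bak1 in all 7 PF/F types tested (0.07 to 0.30). None of these passed a test.

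**Figure D5:**
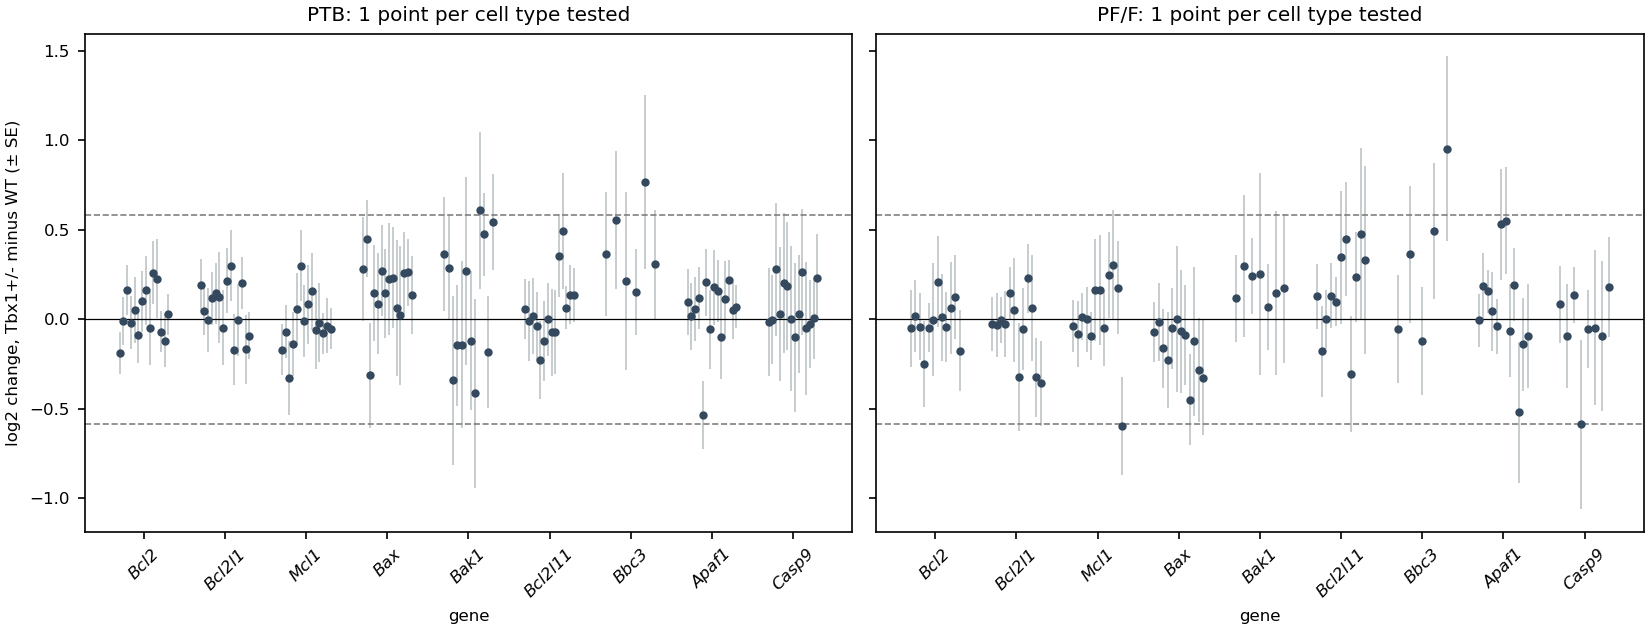
Fitted log2 change, Tbx1+/- minus WT, of each gene in every PTB (left) and PF/F (right) cell type tested, with its standard error; dashed lines mark 1.5-fold. Most points lay within the dashed lines, and those of Bax were mainly above 0 in PTB (13 of 14) and below 0 in PF/F (11 of 12). Types of a tissue share libraries, so the points of a gene are not independent. How often other genes were as one-sided was not counted.

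Over all annotated nuclei of a tissue, the genotype changes of the 9 genes lay between -0.05 (Bcl2) and 0.32 (Bbc3) in PTB and between -0.12 (Bax) and 0.19 (Bak1) in PF/F, and none was called. Over all genes no gene was called in either tissue, and 1.07% of genes in PTB and 0.477% in PF/F had an unadjusted p under 0.05. In simulated data, edgeR missed part of the planted 2-fold changes in sums of either tissue. In a first draw, since replaced by others, it missed all of those in PF/F. The lack of calls therefore does not show unchanged levels. The simulated libraries held no batch differences, unlike the real ones, so the share missed here is not known. Bax was at 29.1 and 21.7 CPM in the WT and 30.5 and 29.0 CPM in the Tbx1+/- PTB libraries (0.22 ± 0.17, edgeR adjusted p = 1.00), and at 59.5 and 39.6 against 52.2 and 38.3 CPM in PF/F (-0.12 ± 0.25, edgeR adjusted p = 1.00). The PF/F values differed more between the replicate numbers than between the genotypes. Bbc3 was at 4.89 and 4.21 against 5.57 and 5.80 CPM in PTB (0.32 ± 0.18, edgeR adjusted p = 1.00).

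The difference between the tissues in the genotype effect was tested as an interaction, and no member was called (0 of 22148 genes tested, with 0.899% at an unadjusted p under 0.05). The difference for Bax was 0.34 ± 0.31 (edgeR adjusted p = 1.00). For the other 8 members it lay between -0.02 and 0.23.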

How the data were processed

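Nuclei were profiled with 3′ droplet snRNA-seq. The authors ran Cell Ranger 7.0.0 with introns included on mm10, and the deposited values are its raw UMI counts. The authors excluded low-quality nuclei and corrected free RNA with SoupX, but the counts used here are uncorrected. Cell types are those the authors annotated. Single values of some PF/F types are not reported here. No doublet removal is described, so the fits were repeated without the 8% of nuclei with most UMIs per library.

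Counts were summed per library and type (Python 3.11.15, numpy 2.4.6, pandas 2.3.3). CPM is per 1000000 UMIs of the summed nuclei. Sums were compared with edgeR 4.0.16 in R 4.3.3 (filterByExpr, TMM, quasi-likelihood test, Benjamini-Hochberg adjustment over all genes tested), at an adjusted p under 0.05 and above 1.5-fold, in types with at least 50 nuclei in every library. The main fits held no batch term. A standard error is the log2 change over the root of the F statistic. Exact permutation tests used scipy 1.17.1, and with 2 libraries against 2 such a test cannot give a p below 0.333. The fits were tested on simulated data. In a first draw with gene-wise dispersions, edgeR recovered none of the planted 2-fold genotype changes in PF/F sums, where DESeq2 recovered some. Further draws followed, with gene-wise and with trended dispersions, in which edgeR recovered part of them. No draw held batch differences. Limits of 3 UMIs cover counting error only.

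Same-numbered libraries come from 1 batch of animals. After subtraction of group means, the WT and Tbx1+/- values of a batch correlated across genes at 0.566 in PTB (16224 genes) and 0.700 in PF/F (16790 genes); genes are not independent replicates. Alternatives were a replicate block, RLE factors, DESeq2 1.42.0, keeping genes of low count, all barcodes, equal weights for types and leaving out each library.

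Named genes were the 9 members, the 3 genes most like Bcl2, Bax, Bcl2l11 and Apaf1 in each tissue, and up to 3 called genes per pathway list with the smallest p between tissues. Members, lists and pairs of types were chosen with earlier results of these data known.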

Additional observations from a re-analysis of the deposited data

How the results depend on the processing

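The count of members called between tissues was 4 with RLE factors, without a filter, with DESeq2, without the nuclei with most UMIs, with all barcodes and with the replicate block, and 3 to 4 when each library was left out. With types weighted equally, 3 members lay beyond 1.5-fold with an exact permutation p of 0.0286. That p is unadjusted, so this count follows another rule than the calls. Casp9 fell below 1.5-fold without PF/F WT replicate 1, PF/F Tbx1+/- replicate 1, PTB WT replicate 2 or PTB Tbx1+/- replicate 2 (lowest 0.52, highest 0.74 over all libraries left out), with all barcodes (0.43) and with types weighted equally (0.58), and Bcl2 was called with all barcodes (0.74). Bcl2l1 changed sign between tissues with types weighted equally (0.021), and Bbc3 without the nuclei with most UMIs (-0.023), with types weighted equally (-0.14) and when single libraries were left out (-0.0047 to 0.18).

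No member was called between genotypes, per type or per tissue, or in the interaction under any alternative run, and the replicate block (0 called) changed no call. For the interaction, the block was added after seeing the data (0 members and 0 of 22148 genes called). Leaving out single libraries changed the sign of uncalled genotype changes. In PTB these ran from -0.023 to 0.14 for Bcl2l1, -0.068 to 0.050 for Mcl1 (0.023 without the nuclei with most UMIs), -0.057 to 0.16 for Apaf1 and -0.15 to 0.40 for Casp9. In PF/F they ran from -0.17 to 0.048 for Bcl2, -0.071 to 0.11 for Bcl2l1, -0.098 to 0.061 for Mcl1, -0.38 to 0.21 for Bax, -0.069 to 0.24 for Bcl2l11, -0.14 to 0.37 for Bbc3 and -0.040 to 0.11 for Casp9. The causes were not tested. With 2 libraries per group, and few UMIs of Bbc3 and Bak1 in small types, changes of this size could not be resolved. Over the fixed pairs of types, members were apart in 20 of 54 comparisons in PTB (37.0%, beside 35.1% over all genes) and 26 of 45 in PF/F (57.8%, beside 46.3%). In alternatives chosen after seeing the data, these counts were 19 and 24 without the nuclei with most UMIs (34.8% and 44.9% over all genes), and 23 to 27 and 27 to 29 when single libraries were left out (42.3 to 43.8% and 52.5 to 54.9% over all genes).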
